A study of Homo sapiens with 6 samples.

Results

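A set of 50 genes of the G2 and M phases of the cell cycle was followed in IGROV1, an established human ovarian carcinoma cell line. They were taken by name, as genes of the mitotic cyclins and kinases, the anaphase-promoting complex (APC/C), the kinetochore, the spindle and mitotic chromatin. They are 50 of the 19775 genes with a single symbol on the array, and 102 probe sets carried the symbol of 1 of them. Another 8 probe sets are annotated to a member together with other genes and were not used. The cells, grown in RPMI 1640 with fetal bovine serum, were stained with Hoechst 33342 and sorted into the side population (SP), which keeps little of this DNA-binding dye, and the remaining cells (non-SP). The labels name no other treatment of either group, and each group has 3 samples on 1 array each, called SP 1 to 3 and non-SP 1 to 3. The samples are labelled biological replicates of 1 line, and whether the cultures were separate is not stated, so the p-values cover only the spread among the arrays, part or all of which may be technical. Hoechst signal grows with DNA content as well as with dye retention, so a difference in cell cycle phase and other properties of the gate cannot be told apart in this design. In sorted populations, fewer cells in mitosis and less RNA per mitotic cell cannot be told apart either.

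Cells build up the transcripts of mitosis late in the cycle. CDK1 with cyclins A and B drives entry into mitosis, Aurora and Polo-like kinases build the spindle, and the spindle checkpoint holds back the APC/C until chromosomes are attached. The APC/C with CDC20 then marks securin and cyclin B for destruction. In resting cells the DREAM complex holds many of these genes silent, and in G2 the MYBL2-MuvB complex and FOXM1 turn them on. DREAM, MYBL2-MuvB and FOXM1 act through a short promoter element called CHR (cell cycle genes homology region), and the factor NF-Y binds CCAAT boxes upstream of it.

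That element was common in the promoters of the members. RefSeq windows of 300 bases (250 before and 50 after the start site, GRCh38.p14) were given for 43 of the 50 genes, 52 windows in all. A CHR (TTTGAA or TTCGAA, either strand) was present in 67.3% of the members' windows and in 16.4% of all 35116 windows. CCAAT on either strand was present in 39 of the 52 windows against 34.6% of all, and CHR and CCAAT stood together in 55.8% against 6.38%. Of 49 CHR matches, 17 began between 40 and 15 bases upstream of the start site. The 5 stretches printed here run from 150 bases before to 50 bases after the start site and show the layout in 3 genes that were lower on the same 3 arrays (CCNB2, PLK1 and MKI67) and in CDK1 and KIF11, which were not. Capitals mark CHR and CCAAT matches of either strand, which overlap in MKI67. For CDK1 the second of its windows in the table is shown.
CCNB2, chr15:59104996-59105195, plus strand: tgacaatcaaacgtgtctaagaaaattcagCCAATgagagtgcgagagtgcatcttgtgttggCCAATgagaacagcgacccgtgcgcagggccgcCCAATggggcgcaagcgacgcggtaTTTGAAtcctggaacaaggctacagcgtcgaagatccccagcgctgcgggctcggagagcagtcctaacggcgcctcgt
PLK1, chr16:23678739-23678938, plus strand: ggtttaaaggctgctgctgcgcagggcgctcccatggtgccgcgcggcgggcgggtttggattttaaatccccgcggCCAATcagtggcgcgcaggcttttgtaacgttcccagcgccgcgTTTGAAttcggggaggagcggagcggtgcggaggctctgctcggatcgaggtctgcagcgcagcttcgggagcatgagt
MKI67, chr10:128126374-128126573, minus strand: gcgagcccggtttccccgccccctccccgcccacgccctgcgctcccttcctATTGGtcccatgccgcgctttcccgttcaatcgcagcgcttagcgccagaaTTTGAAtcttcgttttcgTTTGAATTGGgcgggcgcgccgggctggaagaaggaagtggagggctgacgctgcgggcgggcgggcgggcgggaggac
CDK1, chr10:60778328-60778527, plus strand: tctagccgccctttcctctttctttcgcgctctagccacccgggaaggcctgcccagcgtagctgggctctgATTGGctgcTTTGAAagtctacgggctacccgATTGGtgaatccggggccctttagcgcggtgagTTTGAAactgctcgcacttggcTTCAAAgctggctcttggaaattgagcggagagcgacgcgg
KIF11, chr10:92592980-92593179, plus strand: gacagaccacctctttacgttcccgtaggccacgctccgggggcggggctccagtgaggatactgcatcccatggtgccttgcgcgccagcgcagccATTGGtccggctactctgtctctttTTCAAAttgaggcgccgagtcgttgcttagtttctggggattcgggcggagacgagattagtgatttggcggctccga
In CCNB2 and PLK1 a CHR began at -29 from the start site, with the nearest CCAAT at -54 and -73. KIF11 had the same arrangement at -28 and -53. A match describes the sequence and is not evidence of binding.

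The 6 arrays did not vary along the sort alone. ASNS, asparagine synthetase, a target of the ATF4 amino acid response, had log2 levels of 9.60, 12.64 and 9.90 in non-SP 1, 2 and 3 and of 9.78, 12.39 and 12.43 in SP 1, 2 and 3. The 3 arrays non-SP 2, SP 2 and SP 3 thus lay above 11 and the 3 arrays non-SP 1, non-SP 3 and SP 1 below it. This division was read from the measured values and is not a group of the study, so the arrays on its sides are described and not tested. Besides ASNS itself, which sets the division, 7 of 11 amino acid response genes were higher on all 3 arrays with ASNS above 11, against 13.1% of all genes, among them SLC7A11, the cystine transporter, and PHGDH, the first enzyme of serine synthesis. Of 7 ovarian carcinoma markers, EPCAM lay between 11.997 and 12.29 and PAX8 between 10.14 and 10.67. The median of the 7 lay between 10.14 and 10.62 over the arrays. By the ASNS division 1 of the 7 was lower on the arrays above 11 and 0 were higher, beside 13.7% and 13.1% of all genes. By the sort 1 was higher and 2 were lower in SP without overlap, beside 4.78% and 7.1% of all genes. Of 6 fibroblast, 3 leukocyte and 3 endothelial markers, CDH5 alone was parted by the division, being higher on the arrays above 11; the range of the log2 summed level on the arrays below and above 11 was 7.81 to 7.88 and 7.76 to 7.94 for fibroblast, 5.56 to 5.89 and 5.70 to 5.78 for leukocyte, and 7.42 to 7.55 and 7.48 to 7.73 for endothelial markers. The ACTB 3' minus 5' signal, which grows as RNA is degraded or copied incompletely, was 2.02, 2.29 and 2.08 on the arrays with ASNS below 11 (non-SP 1, non-SP 3, SP 1) and 2.55, 2.48 and 2.46 on those above it (non-SP 2, SP 2, SP 3). The same measure of GAPDH was not parted, at 0.15, 0.04 and 0.14 against 0.36, 0.04 and 0.17. Their part in the results that follow was not tested.

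Most of the mitotic genes were lower on the arrays with ASNS above 11, including the non-SP one. For 33 of the 50 members all 3 arrays with ASNS above 11 lay below all 3 others, which held for 13.7% of all genes. For 1 member, CKS1B, they all lay above, against 13.1% of all genes, though non-SP 2 (11.4722) and SP 1 (11.4713) were nearly level. With each gene centred on its mean over the arrays, the median member stood at 0.28 in non-SP 1, 0.35 in non-SP 3 and 0.50 in SP 1. On the arrays above 11 it stood at -0.65 in non-SP 2, -0.20 in SP 2 and -0.21 in SP 3, all log2. Non-SP 2 was the lowest of the 6 arrays for 38 members (76.0%), and for 16.7% of all genes. Over the probe sets, 62 of 102 were lower on all 3 arrays above 11 and 1 was higher; 12.04% of all probe sets were lower. A CHR was present in 65.7% of the windows of members that were lower on the arrays with ASNS above 11 and in 70.6% of those of the other members.

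**Figure D1:**
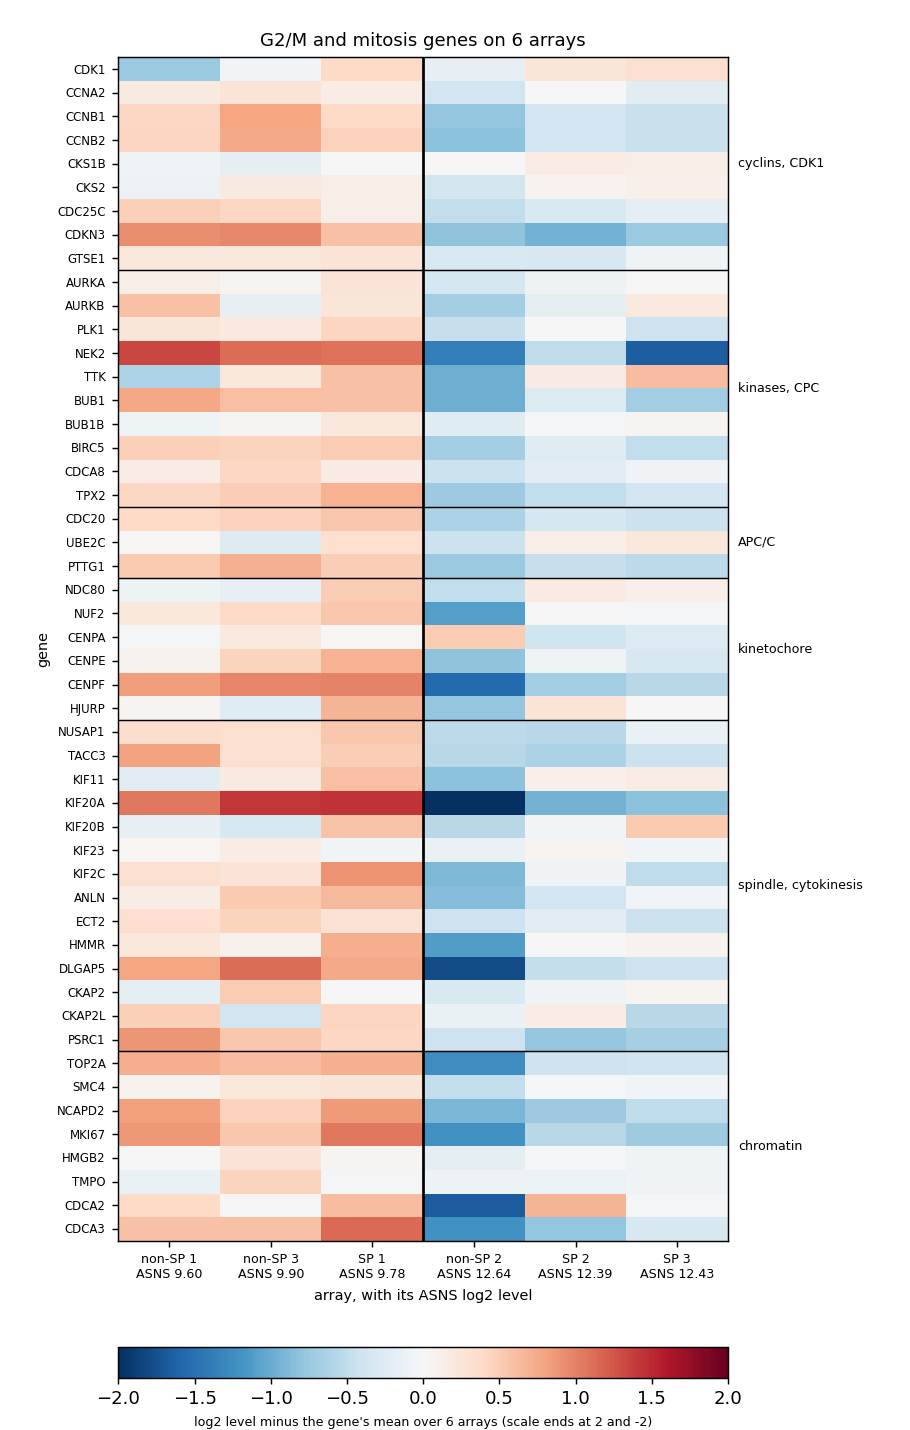
Heat map of the 50 genes (rows, grouped by role) on the 6 arrays (columns, with the ASNS log2 level of each); colour is the log2 level minus the gene's mean over the arrays. Most rows are red on the 3 arrays with ASNS below 11 and blue on the 3 above it, with non-SP 2 lowest for 38 genes.

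Compared by the sort, the members did not move one way. The median SP minus non-SP difference over the 50 genes was -0.04 on the log2 scale, beside -0.02 over all genes, and 22 members lay above 0 (44.0%; 45.2% of all genes). None passed in limma (adjusted p from 0.611 to 0.998; 0 higher and 0 lower), in a fit where 0% of all genes were called higher and 0.00506% lower. At an unadjusted p under 0.05, 6 members were higher and 0 lower, where 3.07% and 3.71% of all genes were. The groups did not overlap, with SP higher, for 4 members (CDK1, UBE2C, NDC80 and KIF20B; 4.78% of all genes), and with SP lower for 0 members (7.1% of all genes). Of the 102 probe sets, 9 had SP higher without overlap (5.592% of all probe sets), and 2, dimmer ones of BUB1 (-0.70) and CCNB2 (-0.32), had SP lower (6.872%). These pooled values depended on single arrays: the median was -0.26 without non-SP 2 and -0.19 without SP 1, with 12 and 16 members above 0. It lay between 0.10 and 0.18 without any 1 of the other arrays, with 32 to 38 members above 0.

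Within the sides of the ASNS division, SP arrays were mostly the higher ones. On the side above 11, SP 2 and SP 3 both exceeded non-SP 2 for 40 of the 50 members, against 30.9% of all genes. On the side below 11, SP 1 exceeded non-SP 1 and non-SP 3 for 28 members, against 32.3% of all genes, and 26 members met both conditions, against 12.5%. With the side as a block in the fit, 42 members lay above 0 (84.0%; 44.8% of all genes) and their median was 0.24, beside -0.02 over all genes. Again 0 members passed (limma, smallest adjusted p = 0.128), where 0.00506% of all genes were called higher and 0.0202% lower, and at an unadjusted p under 0.05 17 members were higher and 0 lower (34.0% and 0%), where 5.1% and 5.65% of all genes were. The side comes from values of the same arrays, so p-values from that fit may be too small, and the comparison rests on a single non-SP array above 11 and a single SP array below it.

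**Figure D2:**
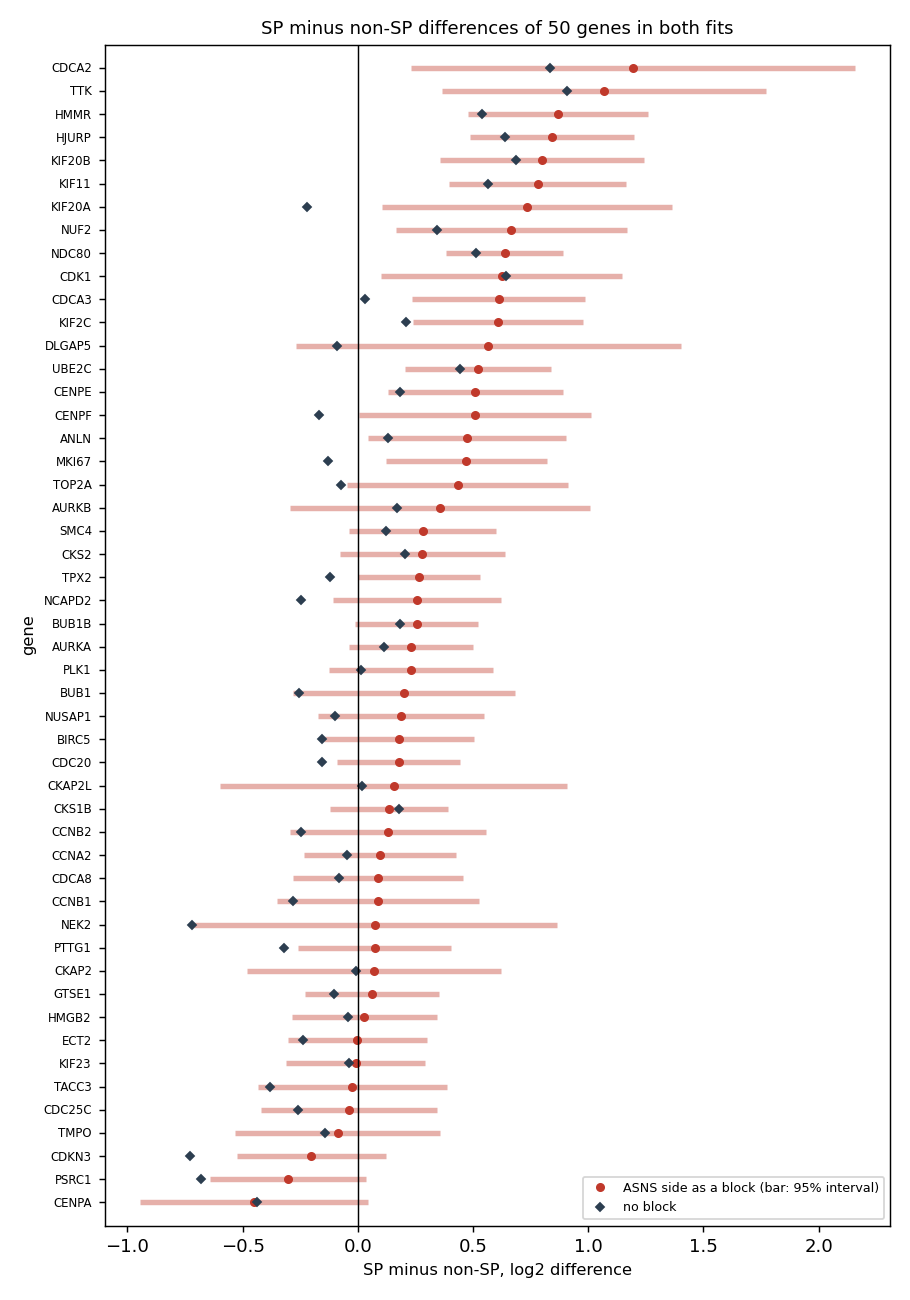
SP minus non-SP log2 difference of each of the 50 genes (rows), without a block (dark diamonds) and with the ASNS side as a block (red points, bars for the 95% interval). The pooled values scatter around 0 (median -0.04), whereas 42 of the red points lie above 0 (median 0.24) and none passes the adjusted threshold.

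Among CDK1, its cyclins and its partners, the cyclins and the kinase behaved differently. CDK1, the kinase of mitotic entry, had log2 levels of 8.37, 8.95 and 9.06 in non-SP 1, 2 and 3 and of 9.52, 9.36 and 9.43 in SP 1, 2 and 3. Each SP array was higher than each non-SP array, whichever side of the ASNS division it was on. The difference was 0.64 (SE 0.20, 95% interval 0.17 to 1.12; limma adjusted p = 0.612). The groups did not overlap for any of the 4 CDK1 probe sets, which share that gene as their target, with differences of 0.64, 0.65, 0.53 and 1.62. With the side as a block the CDK1 difference was 0.62, nearly that of the pooled fit.

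CCNB1, cyclin B1, which activates CDK1 in mitosis, had log2 levels of 10.37, 9.16 and 10.72 in non-SP 1, 2 and 3 and of 10.35, 9.56 and 9.50 in SP 1, 2 and 3. SP 1 stood with non-SP 1 and non-SP 3, and the groups overlapped. The difference was -0.28 (SE 0.44, limma adjusted p = 0.955) and 0.09 with the side as a block. The other, dimmer CCNB1 probe set was at 8.72, 8.02 and 8.84 in non-SP and 8.16, 7.66 and 7.80 in SP arrays. It differed by -0.65 by sort and by -0.46 with the side as a block, so the sign under the block depended on the CCNB1 probe set. CCNB2, cyclin B2, had the same order of sides, at 9.68, 8.44 and 10.02 in non-SP and 9.71, 8.88 and 8.81 in SP arrays. CCNA2, cyclin A2, which acts from S phase into mitosis, spanned 0.64 log2 units with its brightest probe set, at 9.31, 8.75 and 9.39 in non-SP and 9.28, 9.12 and 8.91 in SP arrays. Its difference was -0.05 (SE 0.20, limma adjusted p = 0.985). The other CCNA2 probe set spanned 2.27 log2 units, at 9.05, 7.36 and 9.04 in non-SP and 9.63, 8.42 and 8.68 in SP arrays, and differed by 0.43 by sort and by 0.89 with the side as a block.

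CDKN3, a phosphatase that acts on CDKs, had log2 levels of 9.68, 7.94 and 9.71 in non-SP arrays and 9.32, 7.81 and 8.01 in SP arrays. It was the member with the lowest pooled difference, -0.73 (SE 0.59, limma adjusted p = 0.903), and here SP 1 lay below its 2 non-SP neighbours. With the side as a block the CDKN3 difference was -0.20. CKS1B and CKS2, small proteins that bind CDKs, hardly varied: CKS1B spanned 0.33 and CKS2 0.55 log2 units over the 6 arrays. CDC25C, the phosphatase that activates CDK1, and GTSE1, a microtubule-binding regulator of p53, were lower on all 3 arrays above 11 with their brightest probe sets. All 5 GTSE1 probe sets were lower there, whereas the dimmer CDC25C probe sets overlapped. In all, 6 of the 9 genes of this role were lower on all 3 arrays above 11, beside 13.7% of all genes. A pooled difference above 0 was found for 3 of 9, beside 45.2% of all genes.

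Most mitotic kinases and passenger proteins were lower on the arrays with ASNS above 11 (7 of 10, beside 13.7% of all genes). None was higher, beside 13.1% of all genes. AURKA, Aurora A, which matures centrosomes, had log2 levels of 12.01, 11.56 and 11.94 in non-SP arrays and 12.14, 11.80 and 11.90 in SP arrays. Its sides were parted by 0.04 only, and the difference by sort was 0.11 (SE 0.17, limma adjusted p = 0.953). AURKB, the kinase of the chromosomal passenger complex, had log2 levels of 8.25, 6.99 and 7.51 in non-SP and 7.91, 7.48 and 7.86 in SP arrays. For this AURKB probe set neither the sort nor the ASNS division parted the arrays, and the difference was 0.17 (SE 0.32, limma adjusted p = 0.965). The other, dimmer AURKB probe set was at 4.53, 5.32 and 5.41 in non-SP and 5.47, 5.52 and 5.66 in SP arrays, a difference of 0.46 with no overlap. PLK1, Polo-like kinase 1, had log2 levels of 6.06, 5.37 and 6.01 in non-SP and 6.25, 5.82 and 5.41 in SP arrays, with a difference of 0.01 (SE 0.27, limma adjusted p = 0.997).

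NEK2, a kinase that splits centrosomes, varied widely, from 7.21 in SP 3 and 7.48 in non-SP 2 to 10.20 in non-SP 1. Its other arrays were at 9.97 in non-SP 3, 9.93 in SP 1 and 8.35 in SP 2, so the sides were parted by 1.59 log2 units. The difference by sort was -0.72 (SE 0.92, limma adjusted p = 0.94). TTK, the checkpoint kinase MPS1, did not follow that division. Its log2 levels were 4.98, 4.61 and 5.82 in non-SP and 6.17, 5.75 and 6.21 in SP arrays, with SP 2 just below non-SP 3. TTK had the highest pooled difference of the members, 0.91 (SE 0.32, 95% interval 0.15 to 1.67; limma adjusted p = 0.666), and lay near the median level of the arrays (5.59 to 5.64).

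BIRC5, survivin, a passenger protein that also blocks cell death, had log2 levels of 11.20, 10.05 and 11.17 in non-SP and 11.23, 10.49 and 10.23 in SP arrays. SP 1 matched its neighbours below 11, and the difference by sort was -0.16 (SE 0.39, limma adjusted p = 0.974). All 4 BIRC5 probe sets were lower on the 3 arrays above 11. TPX2, which activates Aurora A at the spindle, CDCA8 (borealin) and the checkpoint kinase BUB1 were also lower there, whereas BUB1B, which inhibits the APC/C, spanned 0.48 log2 units and overlapped.

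The genes that start anaphase divided in the same way. CDC20, the APC/C activator, had log2 levels of 10.05, 9.03 and 10.11 in non-SP and 10.20, 9.31 and 9.23 in SP arrays (difference -0.15, SE 0.38, limma adjusted p = 0.974). PTTG1, securin, which holds separase inactive, had log2 levels of 11.78, 10.51 and 11.96 in non-SP and 11.76, 10.80 and 10.74 in SP arrays (difference -0.32, SE 0.45, limma adjusted p = 0.947). For CDC20 and PTTG1 the sides were parted by 0.74 and 0.96. UBE2C, the ubiquitin-conjugating enzyme of the APC/C, had log2 levels of 8.66, 8.20 and 8.39 in non-SP and 8.97, 8.75 and 8.86 in SP arrays instead. Its groups by sort did not overlap, and the difference was 0.44 (SE 0.15, 95% interval 0.08 to 0.81; limma adjusted p = 0.658).

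**Figure D3:**
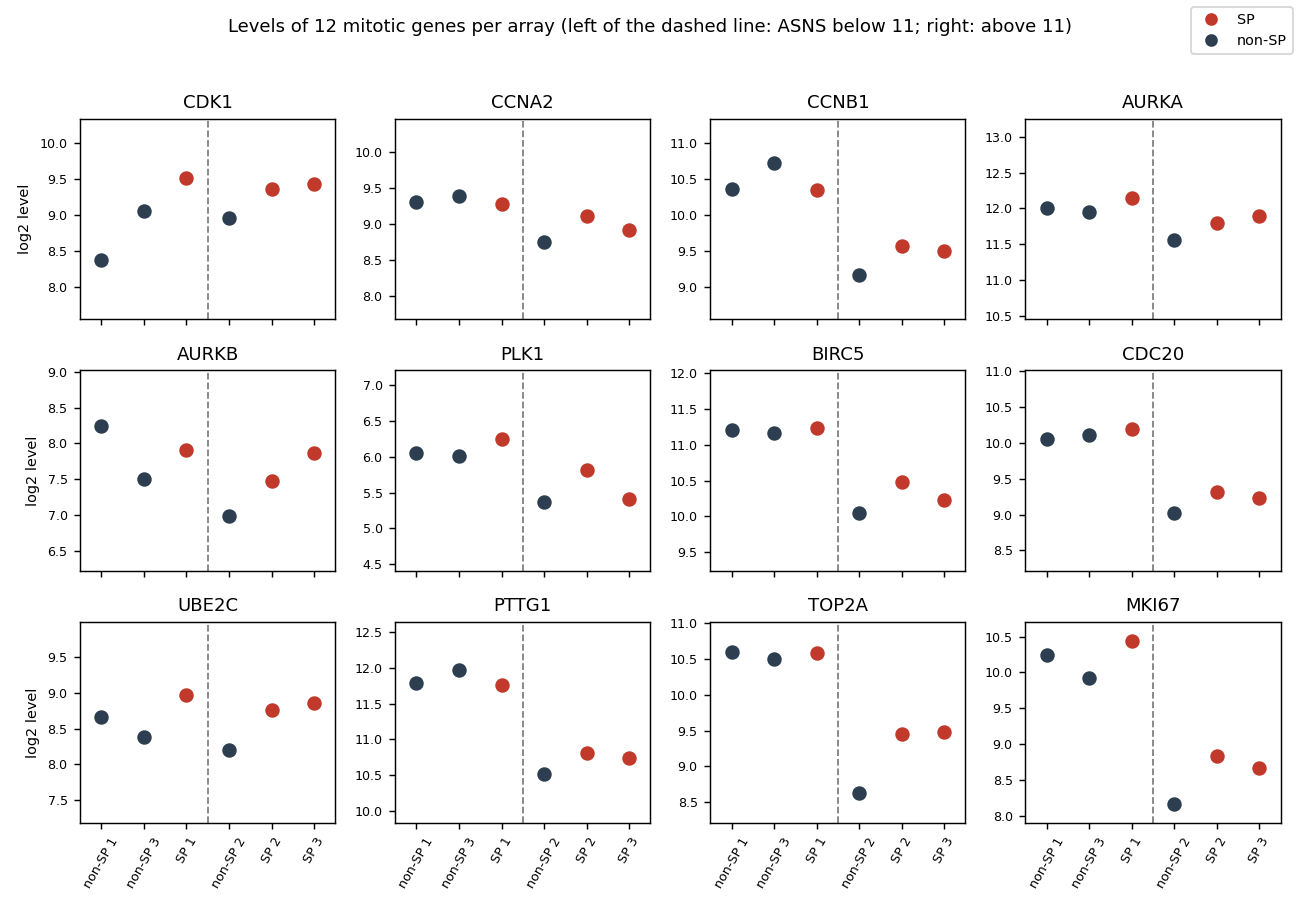
Log2 level of 12 genes on each array (points; red for SP, dark for non-SP), with arrays of ASNS below 11 left of the dashed line and above 11 right of it; each panel spans the same number of log2 units. CCNB1, BIRC5, CDC20, PTTG1, TOP2A and MKI67 step down across the line, while CDK1 and UBE2C are higher in all SP arrays.

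Kinetochore genes had the highest median by sort of the 6 roles (0.26 over 6 genes). NDC80, the outer kinetochore protein that grips microtubules, had log2 levels of 8.69, 8.29 and 8.63 in non-SP and 9.30, 8.95 and 8.89 in SP arrays. Its groups did not overlap, and the difference was 0.51 (SE 0.17, 95% interval 0.10 to 0.92; limma adjusted p = 0.633). NUF2, the partner of NDC80, was at 8.50, 7.20 and 8.68 in non-SP and 8.84, 8.30 and 8.27 in SP arrays, so that non-SP 2 stood far below the other 5. HJURP, which loads CENPA onto centromeres, was at 6.85, 6.02 and 6.55 in non-SP and 7.48, 7.06 and 6.80 in SP arrays, with SP 3 just below non-SP 1. CENPA, the centromeric histone H3 variant, went the other way, at 5.67, 6.21 and 5.90 in non-SP and 5.73, 5.30 and 5.43 in SP arrays (difference -0.44, SE 0.19, limma adjusted p = 0.733). CENPF, a kinetochore protein of G2 and M, was one of the widest members, at 10.56 and 10.70 in non-SP 1 and 3 and 10.71 in SP 1, against 8.18 in non-SP 2 and 9.04 and 9.18 in SP 2 and 3. CENPE, a kinesin of the kinetochore, was lower on all 3 arrays above 11, as 3 of the 6 genes of this role were, beside 13.7% of all genes.

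Among spindle and cytokinesis genes, KIF20A, a kinesin of the central spindle, was at 9.19 and 9.56 in non-SP 1 and 3 and at 9.58 in SP 1, against 5.99 in non-SP 2 and 7.19 and 7.31 in SP 2 and 3. The sides were parted by 1.88 log2 units, the widest gap of the 50 members. Within the sides SP 1 lay level with non-SP 3, while SP 2 and SP 3 lay 1.2015 and 1.32 above non-SP 2. DLGAP5, which stabilises spindle microtubules, was likewise higher on the arrays below 11, with 9.62 and 9.96 in non-SP 1 and 3 and 9.58 in SP 1 against 7.05 in non-SP 2 and 8.36 and 8.42 in SP 2 and 3. PSRC1, a microtubule-binding protein, was at 8.18, 6.89 and 7.83 in non-SP and 7.71, 6.52 and 6.63 in SP arrays. There SP lay below non-SP on either side (difference -0.68, SE 0.43, limma adjusted p = 0.867; -0.30 with the side as a block).

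KIF20B, a kinesin of cytokinesis, had log2 levels of 6.98, 6.57 and 6.82 in non-SP and 7.71, 7.08 and 7.65 in SP arrays. Its groups did not overlap (difference 0.69, SE 0.21, 95% interval 0.19 to 1.19; limma adjusted p = 0.611). Its other probe sets differed by 0.07 and 0.03, at log2 levels under 3 and under 5. KIF11, the motor that separates spindle poles, was at 7.15, 6.55 and 7.55 in non-SP and 7.98, 7.47 and 7.51 in SP arrays. HMMR, a spindle assembly factor, was at 8.05, 6.71 and 7.93 in non-SP and 8.57, 7.84 and 7.90 in SP arrays, with its sides parted by 0.02. The other HMMR probe set was at 7.75, 7.22 and 7.87 in non-SP and 7.98, 8.11 and 8.04 in SP arrays. It was parted by the sort (difference 0.43) and not by the ASNS division. In this role 9 of 14 genes (beside 13.7% of all genes) were lower on all 3 arrays above 11, among them ANLN, ECT2, KIF2C, NUSAP1 and TACC3. CKAP2, CKAP2L and KIF23 overlapped, and KIF23, which bundles the central spindle, spanned 0.28 log2 units, the least of the 50.

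Genes of mitotic chromatin were lower on the arrays above 11 for 6 of 8, beside 13.7% of all genes. MKI67, the Ki-67 protein that coats mitotic chromosomes and serves as a marker of cycling cells, had log2 levels of 10.24, 8.17 and 9.92 in non-SP and 10.44, 8.83 and 8.67 in SP arrays. By sort the difference was -0.13 (SE 0.67, limma adjusted p = 0.988), and with the side as a block 0.47 (95% interval 0.12 to 0.82, limma adjusted p = 0.339). The other MKI67 probe sets differed by sort by 0.22, -0.54 and 0.17. TOP2A, topoisomerase II alpha, which untangles sister chromatids, had log2 levels of 10.60, 8.63 and 10.50 in non-SP and 10.58, 9.46 and 9.48 in SP arrays. Its difference was -0.07 (SE 0.58, limma adjusted p = 0.993), and 0.43 with the side as a block, and its other probe sets differed by 0.01 and -0.38. The condensin genes differed in size of step, with sides parted by 0.96 for NCAPD2 and 0.10 for SMC4.

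CDCA2, which recruits a phosphatase to chromatin at mitotic exit, was at 8.59, 6.52 and 8.18 in non-SP and 8.80, 8.86 and 8.14 in SP arrays. Non-SP 2 stood more than 1.5 log2 units below the others, and the difference was 0.83 (SE 0.53, limma adjusted p = 0.867). The other CDCA2 probe set differed by 0.10 and was lower on all 3 arrays above 11. CDCA3, which triggers degradation of the mitotic inhibitor WEE1, was at 8.28, 6.48 and 8.28 in non-SP and 8.83, 6.92 and 7.37 in SP arrays. HMGB2, a DNA-bending protein, and TMPO, a protein of the inner nuclear membrane, spanned 0.44 and 0.58 with their brightest probe sets. Dimmer TMPO probe sets that spanned 1.46 and 1.28 log2 units were lower on all 3 arrays above 11, and those that spanned 0.62 and 1.11 were not. For the 28 members with several probe sets, all probe sets had 1 sign by sort in 20, and in 9 each probe set was lower on the arrays above 11. No matching share over all genes is given for these counts, and probe sets of 1 gene share their target. Of the 50 members, 37 had at least 1 probe set lower on these arrays and 33 the brightest one. Whether a member counted as lower thus depended in part on its probe set.

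Further genes of mitosis were lower on these arrays to differing degrees. Of 21 further spindle and cytokinesis genes, 11 were lower on all 3 arrays above 11 and 0 were higher, and of 16 further condensin, cohesin and separase genes 7 were lower and 2 higher. ESPL1, separase, which cuts cohesin, had the widest gap of these lists at 1.21 log2 units, with levels of 8.10, 5.96 and 7.60 in non-SP and 7.36, 5.71 and 6.15 in SP arrays. Of 32 further centromere, kinetochore and checkpoint genes 9 were lower and 3 higher. Of 14 APC/C subunits and regulators, which assemble a complex present through much of the cycle, 2 were lower and 1 higher, close to the 13.7% and 13.1% of all genes. None of the genes of these lists passed by sort (limma; 0 higher and 0 lower in each), and the lists' medians by sort were 0.13, -0.00, 0.15 and -0.02. SPC24, the NDC80 complex subunit, differed by 0.35 (SE 0.15), CENPO by 0.40 (SE 0.17), DEPDC1 by 0.45 (SE 0.22), BORA, an activator of PLK1, by 0.26 (SE 0.13), WAPL, which releases cohesin, by 0.43 (SE 0.24), ESPL1 by -0.82 (SE 0.64), CDC16 by 0.31 (SE 0.11) and FZR1 by 0.10 (SE 0.11).

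Among the factors that act on these promoters, FOXM1 and MYBL2 were lower on the same arrays. FOXM1 had log2 levels of 7.998, 6.81 and 7.93 in non-SP and 8.26, 7.41 and 7.48 in SP arrays (difference 0.14, SE 0.38, limma adjusted p = 0.9754). MYBL2 had log2 levels of 7.57, 6.60 and 7.18 in non-SP and 7.32, 6.64 and 6.65 in SP arrays (difference -0.25, SE 0.30, limma adjusted p = 0.937). FOXM1 and MYBL2 were both lower on the 3 arrays with ASNS above 11. Of the 14 genes of the list, 3 were lower there and 2 higher (21.4% and 14.3%, beside 13.7% and 13.1% of all genes). LIN54, the MuvB subunit that binds the CHR, was instead higher in all SP arrays, at 5.62, 5.45 and 5.54 against 5.06, 5.01 and 4.89 (difference 0.55, SE 0.12, limma adjusted p = 0.415). The subunits of NF-Y did not move one way. NFYB was lower in all SP arrays (difference -0.41, SE 0.14, limma adjusted p = 0.633). NFYA was higher in all of them (difference 0.67, SE 0.25, limma adjusted p = 0.693), and NFYC overlapped (difference 0.26, SE 0.20).

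CDKN1A, p21, an inhibitor of CDKs through which p53 activates DREAM, had log2 levels of 10.84, 11.22 and 10.93 in non-SP and 11.23, 11.74 and 11.83 in SP arrays. The groups did not overlap, though SP 1 and non-SP 2 were 0.01 apart, and the difference was 0.60 (SE 0.20, limma adjusted p = 0.62). On either side of the ASNS division the SP arrays were the higher ones, as they were for CDK1. CDKN1B, p27, differed by -0.19 (SE 0.16). In the list of mitotic entry control, WEE1, which phosphorylates and inhibits CDK1, differed by 0.68 (SE 0.33) and CCNF, cyclin F, by 0.50 (SE 0.22). Of the 10 genes of that list 8 lay above 0 by sort, against 45.2% of all genes. On the arrays above 11, 2 of the 10 were lower and 1 higher, beside 13.7% and 13.1% of all genes. Among 15 G1/S and replication genes 4 were lower and 2 higher there, beside the same shares of all genes (13.7% and 13.1%). MCM6, a subunit of the replicative helicase, differed by sort by -0.28 (SE 0.12) and E2F1 by 0.35 (SE 0.18). DDIT4 and ATF4 of the amino acid list differed by sort by 0.37 (SE 0.12) and 0.25 (SE 0.12), and ASNS by 0.82 (SE 1.02). None of these genes passed the threshold (limma, adjusted p from 0.415 to 0.9754 over the genes of this and the previous paragraph). At an unadjusted p under 0.05, 5 of the 140 genes of these lists were higher in SP (3.57%, beside 3.07% of all genes) and 1 was lower (0.714%, beside 3.71%).

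**Figure D4:**
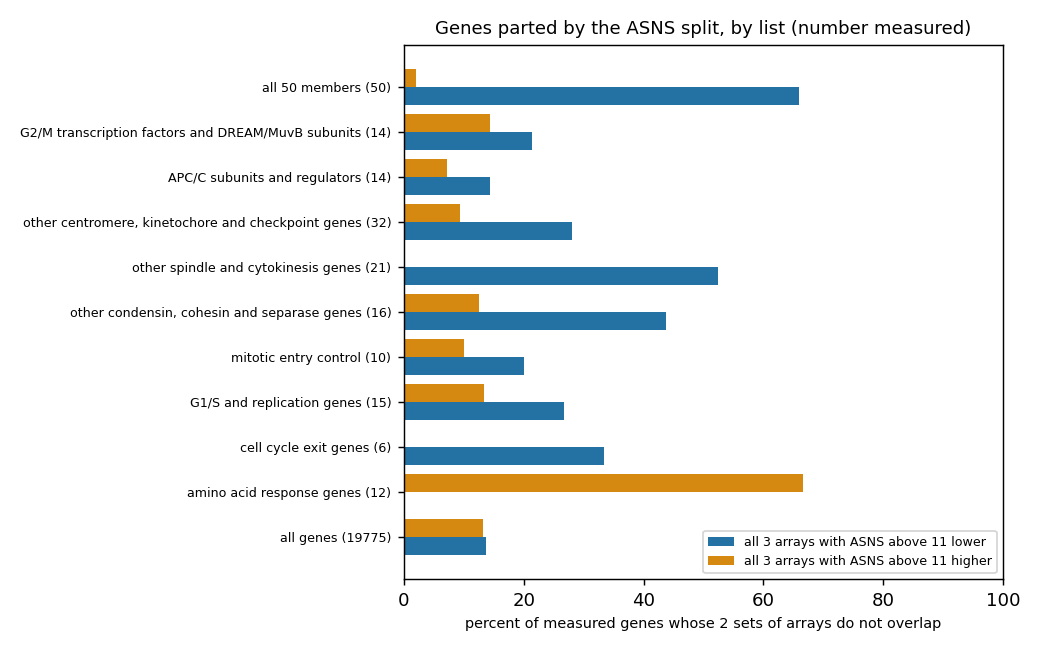
Percent of the measured genes of each list (number in brackets) for which the 3 arrays with ASNS above 11 were all lower (blue) or all higher (orange) than the other 3. The percent axis starts at 0. The 50 members stand at 66.0% lower and 2% higher, against 13.7% and 13.1% of all genes, and the amino acid response genes, which include ASNS itself, at 66.7% higher.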

How the data were processed

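RNA of sorted cells was isolated, amplified and hybridised to 1 array per sample. The table deposited by the authors holds log2 values, 1 per probe set and array; R 2.8.1, affy and RMA are named per the submitters' processing notes, and their settings are not stated in the labels. RMA sets all arrays to a shared distribution, so a change in total RNA cannot be seen. Probe sets were named from the platform annotation, with symbols checked against RefSeq through Entrez ID (41037 matched, GRCh38.p14); of 54675 probe sets, 62 controls, 1801 with several symbols and 11721 unnamed ones were left out of the gene table. A gene was read from its brightest probe set, by the mean of all 6 arrays. SP minus non-SP was fitted over all genes with limma 3.58.1 in R 4.3.3 (lmFit, eBayes, two-sided), with Benjamini-Hochberg adjustment over 19775 genes and a threshold of 0.05; the fit was tested on simulated data. Python 3.11.15, pandas 2.3.3 and matplotlib 3.10.9 searched the promoters and drew the figures. For arrays, their number limits the precision.

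The members, the lists, the ASNS value of 11 and the alternatives were chosen with earlier results of these data known. Alternatives were the replicate block, averaging the probe sets of each gene, probe sets taken singly, only genes above the median level, cyclic loess, median centring, a trend with a robust prior, array weights, the ASNS side as a block and leaving out each sample. Values on every array were given for 12 fixed members, the 4 highest and 4 lowest differences and the 4 smallest p; of other lists, the 2 genes with the smallest p and ASNS, CDKN1A, FOXM1 and MYBL2 were named. Other members and genes given with values, such as KIF20A, DLGAP5, CENPF, CCNB2, NUF2, HJURP, KIF11, HMMR, CDCA3, SLC7A11 and PHGDH, were chosen after their values were seen.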

Additional observations from a re-analysis of the deposited data

How the results depend on the processing

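In all settings run, 0 members were called in either direction, while the genes called over the whole table numbered 1 in the reported fit, 3 with the replicate block, 12 with array weights, 5 with the ASNS side as a block and 0 to 2 in the others. The number of members with a difference above 0 went from 22 to 14 with array weights (median -0.26) and to 42 with the ASNS side as a block (median 0.24), and was 12 to 38 with 1 sample left out; the cause was not tested. With 1 sample left out, 5 to 9 members (10.0% to 18.0%) had all SP arrays higher, against 7.74% to 11.51% of all genes, and 0 to 10 (0% to 20.0%, the most without non-SP 2) had all SP arrays lower, against 10.24% to 16.2% of all genes; fewer samples in a group part more genes. The member higher on the arrays with ASNS above 11 was lost under cyclic loess (0), and members lower there numbered 30 to 36 over all settings. The reported fit did not use the replicate numbers as pairs, and the sample titles do not say whether they are. The correlation of deviations was 0.45, 0.38 and -0.21 for replicates 1, 2 and 3, which cannot settle it. Replicates 1 and 2 each lay on 1 side of the ASNS division, and replicate 3 on both. The replicate block left the members' median at -0.04.

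The differences of 15 named genes turned sign in at least 1 setting, among them ASNS (0.82 in the reported fit), NEK2 (-0.72), SPC24 (0.35), PTTG1 (-0.32) and CCNB1 (-0.28). With the ASNS side as a block they were 0.0866 for CCNB1, 0.10 for CCNA2, 0.18 for CDC20, 0.0725 for PTTG1, 0.18 for BIRC5, 0.43 for TOP2A, 0.47 for MKI67, 0.0757 for NEK2 and -0.10 for ASNS. With array weights they were -0.18 for PLK1, -0.000634 for AURKA and -0.18 for FOXM1. With probe sets averaged per gene they were 0.19 for CCNA2, -0.0529 for FZR1 and -0.0510 for SPC24. With 1 sample left out they ranged from -0.0272 to 0.20 for AURKA, -0.13 to 0.50 for AURKB, -0.54 to 0.0525 for BIRC5, -0.24 to 0.0750 for CCNA2, -0.74 to 0.0407 for CCNB1, -0.51 to 0.0381 for CDC20, -0.25 to 0.35 for FOXM1, -0.77 to 0.27 for MKI67, -0.21 to 0.22 for PLK1 and -0.71 to 0.27 for TOP2A.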
